A study of Mus musculus with 9 samples.

Results

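Colon RNA from mice that had received AOM/DSS together with anti-S100a9 Ab was compared with colon RNA from normal Control mice, to describe which genes still differed from normal mucosa after the treatment. These 6 samples, 3 per group, were taken from 9 in the series, and the other 3 came from AOM/DSS mice given IgG Ab. All were male ICR mice, an outbred stock, 5 weeks old at the start and killed at the end of week 18. The Control mice received neither AOM/DSS nor any antibody. AOM/DSS mice were injected intraperitoneally with AOM at 10 mg/kg, and 1 week later began 3 cycles of DSS in drinking water, at 2% for 7 days and then at 1.5% for 5 days in both later cycles. During the DSS cycles, anti-S100a9 Ab or the negative control IgG Ab was injected intravenously at 1.5 mg/kg every 2 days. Of 21498 gene symbols, 14879 had at least 0.1 FPKM (fragments per kilobase of transcript, scaled to the number of fragments in the sample) in at least 3 of the 6 samples and were compared on the log2(FPKM + 0.1) scale, which understates the change of low genes.

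AOM is a carcinogen of the colon and DSS injures its epithelium, so that repeated DSS after AOM gives colitis followed by tumors. S100a8 and S100a9 form calprotectin, which neutrophils and other myeloid cells carry in large amounts and which amplifies inflammation when released. Cxcl1, Cxcl2 and Cxcl5 are chemokines that attract neutrophils through the receptor Cxcr2.

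The sample labels give the tissue of Control as normal mucosa and that of the anti-S100a9 Ab and IgG Ab samples as adenocarcinoma. The study's text speaks of mucosa for all groups in 1 place. Elsewhere it speaks of adenocarcinoma tissue for IgG Ab and of mucosa for anti-S100a9 Ab. AOM/DSS, the antibody and the labelled tissue therefore cannot be told apart in this comparison. The tissue taken may also differ between the antibody groups, and its part in the differences from IgG Ab was not tested. Markers of colon epithelium were present in all 6 samples, with Muc2, the main mucin of goblet cells, between 183 and 287 FPKM. Myh11, a myosin of smooth muscle, was listed at 162 to 372 FPKM, so the samples also held muscle RNA. FPKM summed to between 353492 and 408811 in Control and between 308377 and 355318 after anti-S100a9 Ab (two-sided exact permutation test, p = 0.2). Mitochondrially encoded genes took 3.19 to 5.90% of the FPKM in Control and 6.48 to 6.85% after anti-S100a9 Ab, without overlap (exact permutation test, p = 0.1, the smallest that 3 against 3 can give); the part of this shift in the results below was not tested. Correlations of log2 values ranged from 0.945 to 0.959 within Control, from 0.954 to 0.969 within anti-S100a9 Ab, and from 0.906 to 0.970 between the groups, with Control replicate 3 in the lowest pair. The read depth is unknown because the files hold no counts. In bulk RNA, fewer cells of a type and less RNA per cell cannot be told apart.

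The study's threshold asks for p under 0.05 before adjustment together with a change of over 2-fold. By it, 375 genes were higher after anti-S100a9 Ab than in Control (2.52% of those tested) and 168 were lower (1.13%), or 3.65% in either direction; every anti-S100a9 Ab sample lay above every Control sample in 17.5% of all genes, and below in 13.9%. Of the called genes, 18 higher and 19 lower had no sample of the other group at 0.1 FPKM, so they passed the filter only through the group where they were high and had to differ; such genes are named with their values and no test. In what follows, "rose" and "fell" mean that a gene passed this threshold in limma. Counts of called members in each gene list are to be read against the 2.52% and 1.13% of all genes. After Benjamini-Hochberg adjustment over all genes no gene passed 0.05, although 2993 genes (20.1%; 11.4% higher and 8.67% lower) had an unadjusted p under 0.05, and the smallest adjusted p in limma was 0.0903, shared by 12 genes. The fit of all 9 samples found 2 genes with an adjusted p under 0.05 in limma, and the fit without an intensity trend found 3. The median log2 difference over all genes was 0.04, and 53.2% of genes were above 0. Higher genes made up 69.1% of the calls, and 53.1% after quantile normalization, which gave 258 higher and 228 lower. A pseudocount of 1 FPKM gave 104 higher and 82 lower. Leaving out single mice moved the counts to 662 higher without Control replicate 1, to 199 higher and 107 lower without Control replicate 3, and to 241 higher without anti-S100a9 Ab replicate 1. The bar plot of calls by setting shows these counts.

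**Figure D1:**
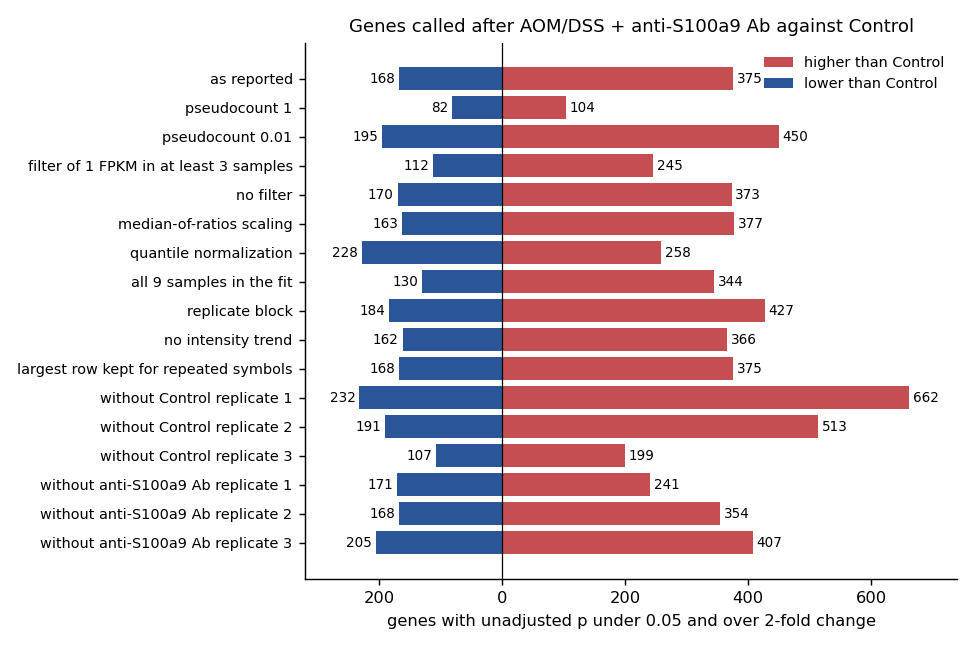
Number of genes called (x axis; unadjusted p under 0.05 and over 2-fold change) in each setting (y axis), higher after AOM/DSS + anti-S100a9 Ab to the right and lower to the left of 0. The reported 375 and 168 genes stand at the top, and the higher count ranges from 104 with a pseudocount of 1 to 662 without Control replicate 1.

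The genes for calprotectin remained above normal after the antibody. S100a9 was 0.370, 0.859 and 0.575 FPKM in the 3 Control mice and 10.3, 11.6 and 5.54 FPKM after anti-S100a9 Ab. Every treated mouse was above every Control mouse, and S100a9 rose by 3.71 ± 0.37 (log2, SE, n = 3 per group; limma, adjusted p = 0.0903). With IgG Ab the same gene stood at 63.1, 173 and 267 FPKM, so that the anti-S100a9 Ab mice lay between the other groups, with a log2 difference from IgG Ab of -4.02 (9-sample limma fit, adjusted p = 0.00561). S100a8 was 0.261, 0.951 and 0.608 FPKM in Control, and 5.33, 13.3 and 3.69 FPKM after anti-S100a9 Ab, again without overlap. It rose by 3.33 ± 0.56 and was 35.7 to 242 FPKM with IgG Ab.

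The neutrophil-attracting chemokines showed the same order of groups. Cxcl1 was 0.868, 0.294 and 0.374 FPKM in Control and 2.80, 3.02 and 3.41 FPKM after anti-S100a9 Ab, a rise of 2.49 ± 0.35. With IgG Ab it was 7.56 to 28.1 FPKM. Cxcl5, made by epithelial and stromal cells, was 0.408, 0.0704 and 0.309 FPKM in Control and 4.95, 3.34 and 1.97 FPKM after anti-S100a9 Ab, against 30.8 to 66.7 FPKM with IgG Ab. It rose by 3.33 ± 0.50, and no treated mouse overlapped with Control. Cxcl2 was listed at 0 in all Control mice and at 0.106, 0.194 and 0.181 FPKM after anti-S100a9 Ab, with 3.16 to 5.56 FPKM under IgG Ab. Their receptor Cxcr2 was 0.0275 to 0.0831 FPKM in Control and 0.628 to 0.682 FPKM after anti-S100a9 Ab. Both Cxcl2 and Cxcr2 passed the filter only through the anti-S100a9 Ab mice. The part of depth in such low values was not tested.

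The promoters of Cxcl1 and Cxcl2 are shown because both genes carry the same match to the binding motif of NF-kappa-B, the factor through which many inflammatory signals act. The bases directly before each RefSeq start site on GRCm38.p6 are printed 5′ to 3′, with the motif in capitals.
Cxcl1, chr5:90891125-90891244, plus strand: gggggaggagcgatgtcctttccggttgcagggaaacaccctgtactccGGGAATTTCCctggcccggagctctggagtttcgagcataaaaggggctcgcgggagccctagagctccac
Cxcl2, chr5:90903779-90903898, plus strand: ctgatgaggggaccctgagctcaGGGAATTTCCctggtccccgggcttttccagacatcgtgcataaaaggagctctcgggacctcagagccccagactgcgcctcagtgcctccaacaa
The motif was searched as these 10 letters, with any base allowed at the fifth, on both strands of the 250 bases before the start, and it begins 71 bases before the start of Cxcl1 and 97 before that of Cxcl2. Among the 9 genes with a promoter sequence in the list of calprotectin and its targets, 3 had a match, the third being Il6, and 0.356% of all 32851 promoters had one. In the chemokine list, which does not include Cxcl1 or Cxcl2, 0 of 14 promoters had a match. A match is a description of the letters and does not show that the factor bound there.

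Of the 9 tested genes in the list of calprotectin and the targets the study names, 4 rose (S100a9, S100a8, Cxcl1 and Lcn2) besides Cxcl2, whose call the filter decided, and none fell. The median log2 difference of the list was 1.36, which is the value of Cxcl2 itself. The study chose these genes on samples that include these, so their direction is not independent evidence. Lcn2, the iron-binding antimicrobial lipocalin, was 1.78, 2.29 and 0.933 FPKM in Control and 4.18, 4.30 and 2.53 FPKM after anti-S100a9 Ab, without overlap. Its rise was 1.14 ± 0.36, and the call was lost without Control replicate 3 or without anti-S100a9 Ab replicate 1 or 2 (0.79 to 1.40 over all leave-outs). Lcn2 reached 77.7 to 176 FPKM with IgG Ab. Tnf (0.76 ± 0.66), Saa3 (0.76 ± 0.71), Mmp7 (1.82 ± 1.00) and Mmp9 (0.50 ± 0.27) were not called, and their samples overlapped between the groups. Il6 did not pass the filter. Without anti-S100a9 Ab replicate 1 or 2 the list held 3 calls, with Cxcl2 then untested.

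Among neutrophil markers, 4 of 11 tested genes were called higher. Of these, S100a8 and S100a9 rose, and the filter decided the other 2, Cxcr2 and Ngp, a granule protein that was listed at 0 in all Control mice and at 0.122, 0.922 and 0.165 FPKM after anti-S100a9 Ab. Without anti-S100a9 Ab replicate 1 or 2 the list held 2 calls, with Cxcr2 and Ngp then untested. Ly6g, the defining surface marker of mouse neutrophils, differed by 0.20 (log2) and was not called, while Elane, Mpo and Mmp8 did not pass the filter. The list's median was 0.80, with Cxcr2 and Ngp counted, and its summed level was 96.1 to 125 FPKM in Control and 107 to 186 FPKM after anti-S100a9 Ab.

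**Figure D2:**
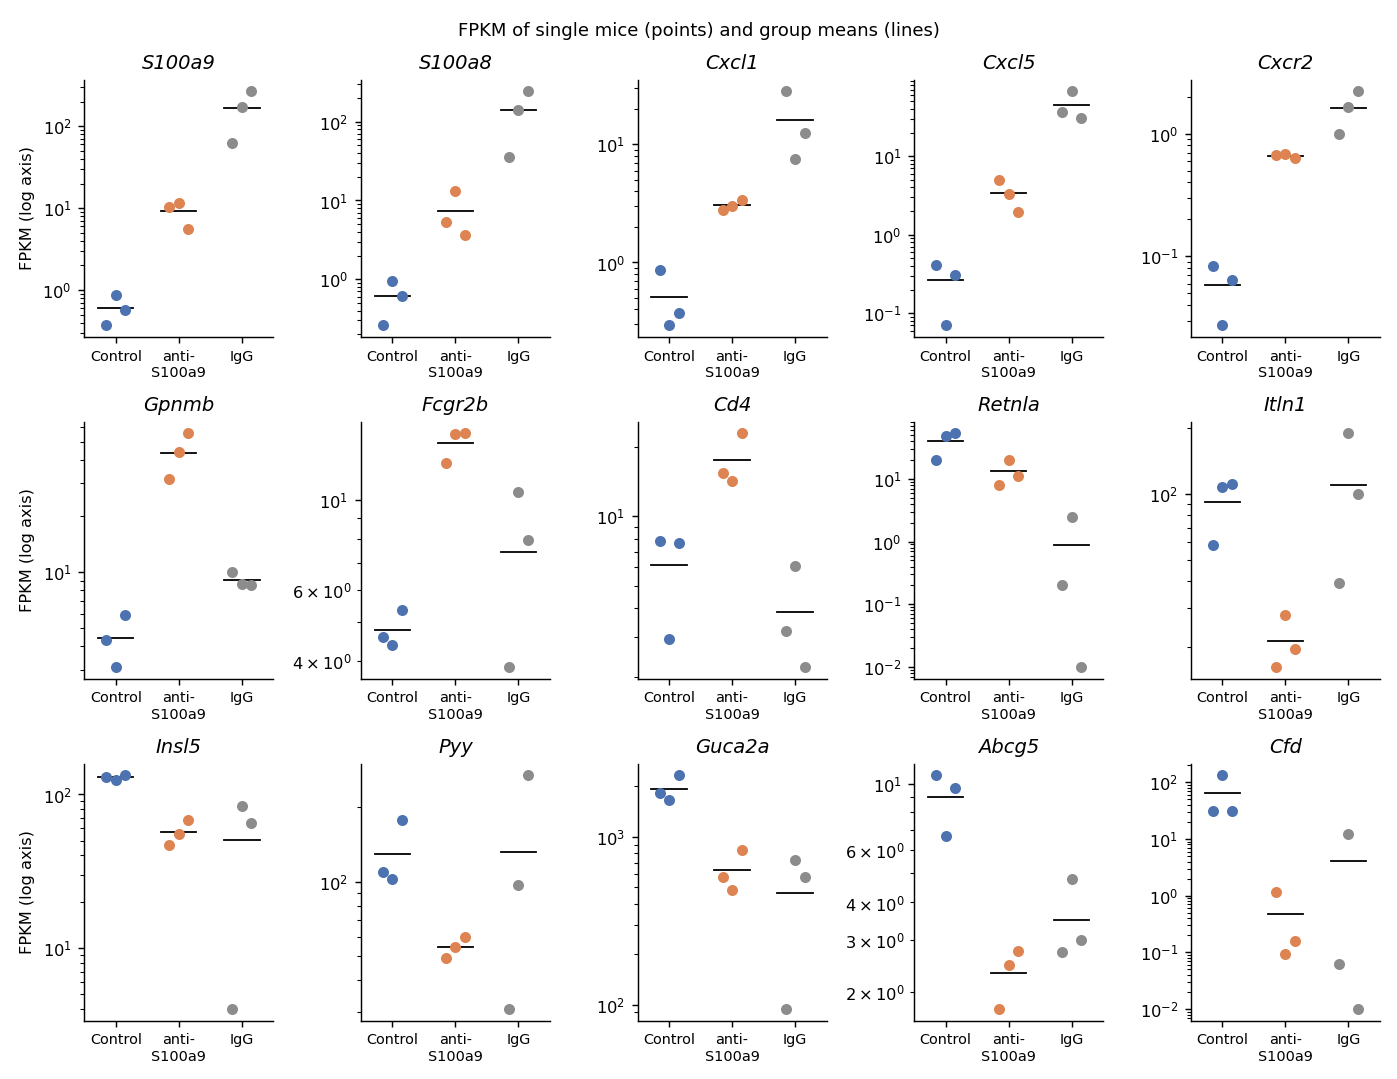
FPKM (y axes, log scale, different range in each panel) of single mice in Control, AOM/DSS + anti-S100a9 Ab and AOM/DSS + IgG Ab, with lines at the group means (n = 3); values of 0 are drawn at 0.01. S100a9 lies at 5.54 to 11.6 FPKM between Control and IgG Ab, whereas Gpnmb is highest after anti-S100a9 Ab.

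Gpnmb, a membrane glycoprotein of lysosome-rich macrophages, had the smallest p of all genes and stood highest in the anti-S100a9 Ab group. It was 4.32, 3.10 and 5.87 FPKM in Control and 31.6, 44.0 and 55.3 FPKM after anti-S100a9 Ab, a rise of 3.28 ± 0.29 (limma, adjusted p = 0.0903) that ranged from 3.05 to 3.50 when mice were left out in turn. With IgG Ab it was 8.55 to 10.0 FPKM, and the difference between the antibodies was 2.22 (9-sample limma fit, adjusted p = 0.00437). Atp6v0d2, a subunit of the proton pump that acidifies lysosomes, rose by 2.53 ± 0.37, from 0.183 to 0.334 FPKM in Control to 1.20 to 3.03 FPKM. Spp1 (osteopontin) rose by 1.11 ± 0.35, a call that was lost without Control replicate 2 or anti-S100a9 Ab replicate 3 (0.85 to 1.39 over all leave-outs). Of the 22 genes of the lysosomal and lipid-handling macrophage list, 3 rose and 2 fell, with a median of 0.29. Both that fell, Fabp4 and Lpl, are also adipocyte genes, and neither was called without Control replicate 2 or without anti-S100a9 Ab replicate 2 or 3. Lgals3 (-0.03), Cd9 (0.09), Cd63 (-0.12) and Lamp1 (0.06) were not called. Neither were Trem2 (1.30), Cd68 (0.87), Ctsk (0.75), Cd36 (-0.60) and Plin2 (-0.35), which lay further from 0. Of the 22 genes, 15 were above 0 and 7 below. At an unadjusted p under 0.05 alone, 5 were higher and 2 lower, against 11.4% and 8.67% of all genes.

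General macrophage genes were not called. None of the 15 genes of the monocyte and macrophage list was called, with a median of 0.20, 11 above 0 and 4 below. Cd68 (0.87) was the 1 gene of this list with an unadjusted p under 0.05. Csf1r, the receptor for the main growth factor of macrophages, was 14.7 to 19.3 FPKM in Control and 18.5 to 20.1 FPKM after anti-S100a9 Ab. Genes of alternatively activated macrophages moved both ways, with 1 rise and 2 falls among 10 and a median of -0.48. Retnla, a secreted resistin-like protein of such cells, was 20.2, 47.9 and 53.0 FPKM in Control and 8.08, 19.9 and 11.2 FPKM after anti-S100a9 Ab. It fell by 1.60 ± 0.45, without overlap between the groups, and was 0 to 2.49 FPKM with IgG Ab. Mgl2, a lectin receptor, fell by 1.29 ± 0.32. Chil3, a chitinase-like protein, rose by 2.01 ± 0.77 with overlapping samples, and its call was lost in 4 of 6 leave-outs (1.37 to 2.67), namely without Control replicate 1 or 2 and without anti-S100a9 Ab replicate 2 or 3.

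A few other immune genes had small p values and were named after their values were seen. Fcgr2b, the inhibitory IgG receptor, was 4.58, 4.38 and 5.36 FPKM in Control and 12.3, 14.5 and 14.6 FPKM after anti-S100a9 Ab, and rose by 1.51 ± 0.15 (limma, adjusted p = 0.0903). Slfn4, a Schlafen family gene of myeloid cells, rose by 1.40 ± 0.15, from 9.97 to 10.9 FPKM in Control to 23.4 to 31.9 FPKM. Klra8, a natural killer cell receptor of the Ly49 family, rose by 2.49 ± 0.35 to 1.03 to 2.40 FPKM, and its value is uncertain because near-identical family members share reads. Klra8 was also higher than with IgG Ab (2.07, 9-sample limma fit, adjusted p = 0.00967).

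Cd4, the coreceptor of helper T cells that some myeloid cells also carry, was the 1 gene of 18 tested in the T cell and cytotoxic lymphocyte list that rose. It was 7.83, 2.94 and 7.67 FPKM in Control and 15.4, 14.3 and 22.96 FPKM after anti-S100a9 Ab, with no overlap and a rise of 1.59 ± 0.40. With IgG Ab it was 2.21 to 6.08 FPKM, 2.26 log2 units below anti-S100a9 Ab (9-sample limma fit, adjusted p = 0.0172). Cd3e, which all T cells carry, was 1.05 to 7.67 FPKM in Control and 2.92 to 6.07 FPKM after anti-S100a9 Ab, so the groups overlapped, and the list's median was 0.23.

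Some chemokines and interferon-stimulated genes rose and none fell. Of 22 chemokines, 3 rose, against 2.52% of all genes, with a median of 0.38. Besides Cxcl5, these were Ccl3 (2.05 ± 0.46; 0.143 to 0.615 FPKM in Control, 1.01 to 2.07 FPKM after anti-S100a9 Ab) and Ccl2, which recruits monocytes (1.19 ± 0.42). The call of Ccl2 was lost without Control replicate 2 or 3 or anti-S100a9 Ab replicate 3 (0.75 to 1.55). Of 21 interferon-stimulated genes, 3 rose and none fell, 20 were above 0, and the median was 0.71. Over all genes, 2.52% were called higher and 53.2% were above 0. Ido1, which degrades tryptophan, was 0.308, 0.957 and 0.286 FPKM in Control and 2.39, 3.22 and 2.46 FPKM after anti-S100a9 Ab, a rise of 2.33 ± 0.41 without overlap. Ifit2 rose by 1.54 ± 0.36, and Gbp5, a guanylate-binding protein of host defence, by 1.06 ± 0.25, with its call lost without Control replicate 2 or 3 or anti-S100a9 Ab replicate 3 (0.91 to 1.27). Without anti-S100a9 Ab replicate 1, which was the lowest of its group for Ifit1 (4.15 FPKM against 17.3 and 23.4), 9 genes of the interferon list rose.

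Of the 15 genes tested in the list of the Cxcr and interleukin-1 axis, 3 rose besides Cxcr2, and each of these 3 calls was lost in at least 2 of 6 leave-outs. Il1rl1, the receptor of interleukin-33, rose by 1.10 ± 0.30, Il11 by 1.31 ± 0.46 and Il1a by 1.45 ± 0.56, the last with overlapping samples. The list held 0 calls without anti-S100a9 Ab replicate 1, 1 without Control replicate 3 and 2 without Control replicate 2 or anti-S100a9 Ab replicate 3; Cxcr2 drops below the filter when an anti-S100a9 Ab mouse is left out. With IgG Ab these 3 genes lay at 1.22 to 9.89 FPKM, and after anti-S100a9 Ab at 0.205 to 1.32 FPKM.

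Genes of epithelial defence moved in both directions. Reg3g, an antibacterial lectin of the epithelium, was 1.61, 0.310 and 2.04 FPKM in Control and 11.3, 39.6 and 4.60 FPKM after anti-S100a9 Ab. The treated mice spread widely but did not overlap with Control, and Reg3g rose by 3.49 ± 0.89. Its relative Reg3b ranged from 0.293 to 87.4 FPKM after anti-S100a9 Ab, overlapped with Control, and kept its call in only 1 of 6 leave-outs, that without anti-S100a9 Ab replicate 3. Itln1, a lectin of goblet cells that binds microbial sugars, was 58.5, 107 and 111 FPKM in Control and 16.2, 28.1 and 19.6 FPKM after anti-S100a9 Ab. It fell by 2.09 ± 0.30, without overlap, and lay below the IgG Ab mice too, at 39.1 to 189 FPKM (log2 difference from IgG Ab -2.12, 9-sample limma fit, adjusted p = 0.0270). Of 16 tested genes in the acute-phase, Reg and antimicrobial list, 5 rose and 2 fell, but single leave-outs gave as few as 1 rise, without anti-S100a9 Ab replicate 1 or 2, 2 without Control replicate 3, 3 without Control replicate 1 or 2, and 1 fall without Control replicate 3 or anti-S100a9 Ab replicate 1.

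Several hormone and granule genes of enteroendocrine cells fell, 4 of 15 in the list against 1.13% of all genes, with none higher and a median of -0.71. Insl5, a hormone of colonic L cells, was 130, 124 and 133 FPKM in Control and 46.9, 55.2 and 68.2 FPKM after anti-S100a9 Ab. It fell by 1.20 ± 0.16, without overlap, and the call held in every leave-out. Chga, a granule protein found across enteroendocrine cells, was 41.6, 46.9 and 96.5 FPKM in Control and 24.8, 19.7 and 21.6 FPKM after anti-S100a9 Ab, and fell by 1.38 ± 0.31. Pyy, the satiety hormone peptide YY, fell by 1.21 ± 0.22, from 103 to 177 FPKM in Control to 49.3 to 59.6 FPKM. Sst, somatostatin, fell by 1.20 ± 0.37. Without Control replicate 3, which was the highest of its group for Chga and Pyy, the calls of Pyy (-0.96) and Sst (-1.06) were lost and the list held 2, and without Control replicate 1 it held 6. The call of Sst was also lost without Control replicate 2 (-0.90). Gcg (-0.19), Scg2 (0.11) and Scg3 (-0.04) were not called. The 9-sample fit, in which the spread of the IgG Ab mice counts too (Pyy at 30.7, 96.7 and 268 FPKM), called none of the list.

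Guca2a, the peptide guanylin that regulates salt and water secretion, was 1817, 1671 and 2334 FPKM in Control and 576, 480 and 841 FPKM after anti-S100a9 Ab. It fell by 1.64 ± 0.28, without overlap and with the call held in every leave-out. Guca2a was the 1 gene called among 20 absorptive colonocyte genes (median -0.25, and -0.12 with quantile normalization). Clca1, which goblet cells secrete with mucus, fell by 1.03 ± 0.35, the 1 call among 14 goblet cell genes (median -0.33, and -0.08 with quantile normalization). The call was lost without Control replicate 2 or anti-S100a9 Ab replicate 1 or 2 (-1.35 to -0.79). At an unadjusted p under 0.05 alone, 4 of the 20 absorptive and 4 of the 14 goblet cell genes were lower, against 8.67% of all genes, and 0 were higher. Muc2 was 232, 287 and 247 FPKM in Control and 183, 202 and 202 FPKM after anti-S100a9 Ab, a difference of -0.38 that was under 2-fold. Of 18 genes for electrolyte and water transport only Clca4b rose, by 3.32 ± 0.90, from 2.20 to 6.16 FPKM in Control to 33.0, 158 and 11.1 FPKM. Slc26a3, the chloride exchanger of the colon surface, overlapped between the groups, at 85.1 to 200 FPKM in Control and 118 to 233 FPKM after anti-S100a9 Ab, while it was 2.79 to 29.9 FPKM with IgG Ab.

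The paired sterol transporter genes Abcg5 and Abcg8, which lie head to head and export plant sterols and cholesterol, were both lower, and were named after their values were seen. Abcg5 was 10.7, 6.69 and 9.69 FPKM in Control and 1.76, 2.48 and 2.75 FPKM after anti-S100a9 Ab, and fell by 1.90 ± 0.25. Abcg8 fell by 1.73 ± 0.34, from 1.66 to 2.86 FPKM in Control to 0.372 to 0.853 FPKM. Cbs, which converts homocysteine to cystathionine, was 41.6, 42.8 and 41.8 FPKM in Control and 22.4, 22.9 and 19.9 FPKM after anti-S100a9 Ab. It was among the smallest p values (limma, adjusted p = 0.0903), but the difference of -0.95 ± 0.11 stayed under the 2-fold threshold. Tmem139 fell by 1.18 ± 0.17, and Serpina3n, a secreted protease inhibitor of the acute phase, rose by 1.44 ± 0.18, from 9.51 to 14.1 FPKM in Control to 27.6 to 36.6 FPKM.

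Few growth-related genes of the epithelium were called. Of 18 Wnt genes 1 rose, with a median of 0.37, and 4 rose without anti-S100a9 Ab replicate 3. This was Sp5, a direct target of Wnt signaling, which was 0.0746 to 0.203 FPKM in Control, 0.236 to 0.956 FPKM after anti-S100a9 Ab and 35.2 to 91.9 FPKM with IgG Ab. Its rise of 1.17 ± 0.49 was lost without Control replicate 2 or 3 or anti-S100a9 Ab replicate 1 (0.64 to 1.47). Axin2, a negative feedback gene of the same pathway, was 5.60, 5.84 and 3.87 FPKM in Control and 9.05, 7.14 and 8.03 FPKM after anti-S100a9 Ab, a difference of 0.67 ± 0.20 that was under 2-fold, and 26.5 to 98.5 FPKM with IgG Ab. None of 14 stem cell genes was called (median 0.21), and Lgr5, the marker of crypt base stem cells, was 0.265 to 1.46 FPKM in Control and 0.333 to 0.623 FPKM after anti-S100a9 Ab. None of 22 cell cycle genes was called, although 21 were below 0, while 53.2% of all genes were above 0, and the median was -0.26. Mki67, which marks dividing cells, was 10.4 to 11.9 FPKM in Control and 7.82 to 12.3 FPKM after anti-S100a9 Ab.

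Most matrix genes had a log2 difference above 0, but few passed the fold threshold. Of 29 collagen and matrix genes, 3 rose and none fell, 13 were higher with an unadjusted p under 0.05, against 11.4% of all genes, and the median was 0.42. Thbs1 (thrombospondin 1) rose by 1.31 ± 0.35, and the matrix metalloproteinases Mmp10 by 1.48 ± 0.49 and Mmp3 by 1.71 ± 0.71. All 3 calls were lost without Control replicate 3 (Thbs1 0.94, Mmp10 1.41, Mmp3 2.02). Those of Mmp10 (0.99) and Mmp3 (1.17) were also lost without anti-S100a9 Ab replicate 1, and that of Mmp3 without Control replicate 2 (1.00) or anti-S100a9 Ab replicate 3 (1.87). Col1a1, the main fibrillar collagen gene, was 38.7 to 44.6 FPKM in Control and 33.0 to 48.6 FPKM after anti-S100a9 Ab, against 68.6 to 489 FPKM with IgG Ab.

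Of 14 smooth muscle genes, 1 rose, all 14 had a log2 difference above 0, against 53.2% of all genes, and the median was 0.43 (0.71 with quantile normalization). Synpo2, an actin-binding protein of muscle, was 9.36, 12.7 and 8.75 FPKM in Control and 29.6, 28.5 and 13.8 FPKM after anti-S100a9 Ab, a rise of 1.16 ± 0.32 that was lost without anti-S100a9 Ab replicate 1 or 2 (0.97 to 1.51). Summed over the list, the level was 2182 to 3649 FPKM in Control and 2823 to 5008 FPKM after anti-S100a9 Ab, so the sums overlapped. Its part in the matrix genes was not tested.

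**Figure D3:**
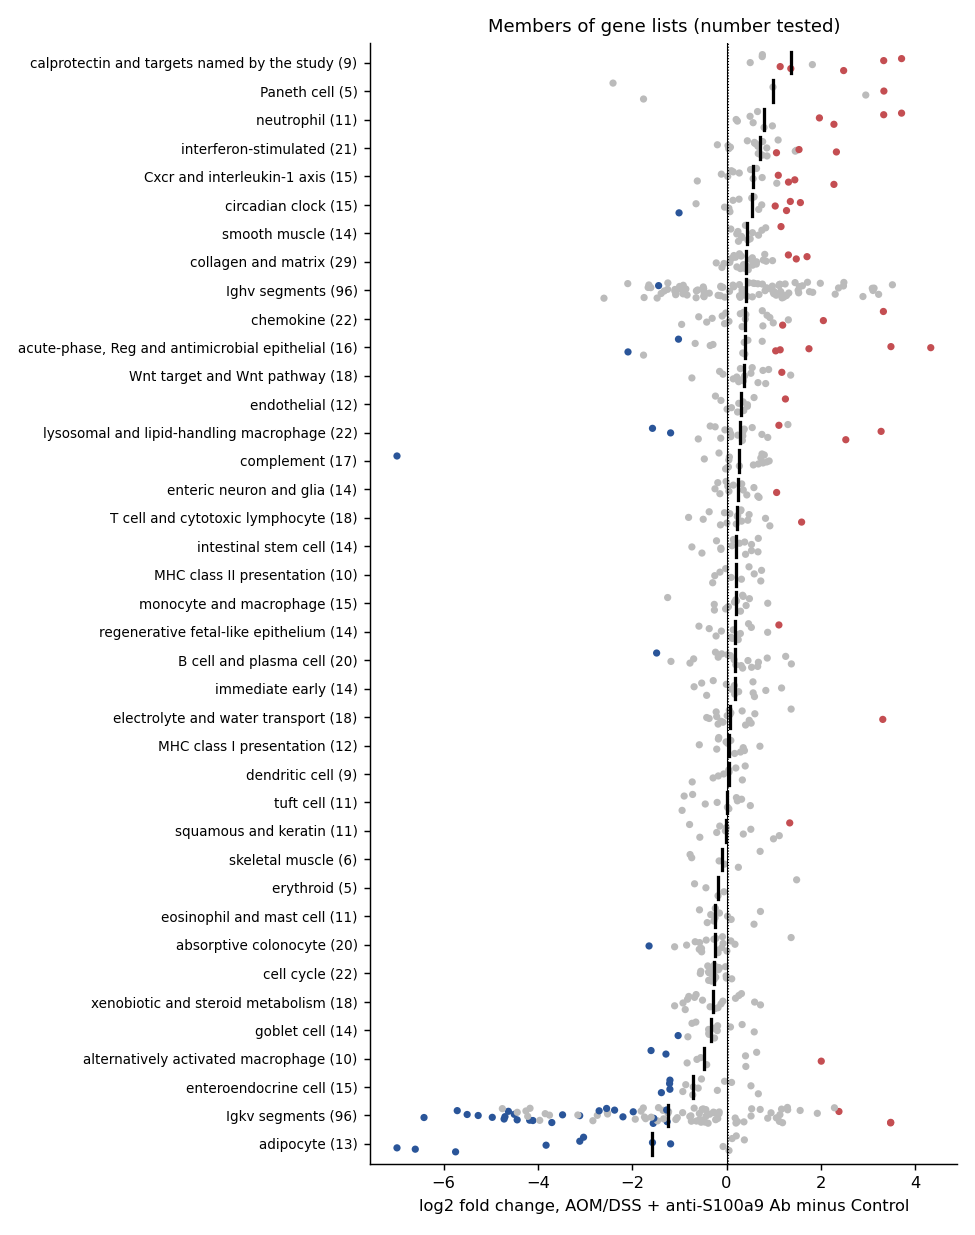
Log2 fold change (x axis, AOM/DSS + anti-S100a9 Ab minus Control) of every tested member of the gene lists with at least 5 tested members (y axis, number tested in brackets), with red for called higher, blue for called lower, grey for not called and a black bar at each list's median; the dotted line marks the median of all genes, 0.04. Calprotectin and its targets lie at the top with a median of 1.36, and adipocyte genes at the bottom with -1.57. Both medians count members whose call the filter decided, Cxcl2 in the first list and Adipoq, Plin1 and Retn in the second.

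Genes of fat cells were among those with the largest falls, beside the immunoglobulin segments described below. Of 13 tested adipocyte genes, 8 were called lower, against 1.13% of all genes, and none higher. The median was -1.57, with the filter-decided members counted. The filter decided 3 of these calls (Adipoq, Plin1 and Retn), since no anti-S100a9 Ab sample reached 0.1 FPKM, and the other 5 fell. Cfd (adipsin), a complement protease secreted by fat, was 30.7, 133 and 31.5 FPKM in Control and 1.16, 0.0944 and 0.156 FPKM after anti-S100a9 Ab, and fell by 6.99 ± 0.84 (limma, adjusted p = 0.0903). Car3, a carbonic anhydrase abundant in fat, was 35.4, 148 and 21.2 FPKM in Control and 0.159 to 1.37 FPKM after anti-S100a9 Ab. Adipoq, which encodes the fat hormone adiponectin, was 4.26, 16.9 and 2.99 FPKM in Control, and 0.0474, 0 and 0 FPKM in the treated mice. The groups did not overlap for Cfd and Car3, which is a condition of the rule for naming the largest falls, and for Adipoq the filter fixed this. Control replicate 2 was the highest mouse for each of these genes. Cyp2e1, which fat also expresses, was 6.07, 31.2 and 3.31 FPKM in Control and at most 0.0687 FPKM after anti-S100a9 Ab, and likewise passed the filter only through Control.

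The remaining adipocyte genes that fell were Cidec (3.83 ± 0.76 lower), Fabp4 and Lpl, while Pparg (0.12), Plin4 (0.38) and Scd1 (0.21), which other cells also express, were not called. The summed level of the list was 203, 520 and 177 FPKM in Control and 107 to 129 FPKM after anti-S100a9 Ab, without overlap, and 106 to 139 FPKM with IgG Ab. The list held 3 calls without Control replicate 2, 4 without Control replicate 1 and 5 without Control replicate 3. Genes with values in only the 3 Control mice fall below the filter when a Control mouse is left out, and Fabp4 (-1.44 to -0.72) and Lpl (-2.20 to -0.85) lost their calls without Control replicate 2 and in other leave-outs. How much fat was attached to each sample is not given in the sources used here, and its part in these values was not tested.

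Calls among immunoglobulin genes lay mostly in variable segments of the kappa light chain. Of 96 Igkv segments tested, 24 were called lower and 3 higher, with a median of -1.24, against 1 lower and 0 higher among 96 Ighv segments, with a median of 0.40. Over all genes, 1.13% were called lower and 2.52% higher. Without Control replicate 1 or anti-S100a9 Ab replicate 1, 8 Ighv segments were higher, and without anti-S100a9 Ab replicate 2, 5 were lower. The difference between the lists was not tested. Igkv3-7 was 323, 466 and 100 FPKM in Control and 9.67, 1.82 and 45.5 FPKM after anti-S100a9 Ab, and Igkv14-111 was 73.7 to 527 FPKM in Control and 1.28 to 38.2 FPKM. Both were called in every leave-out. Igkv1-88 went the other way, with 18.9 to 42.0 FPKM in Control and 190 to 1071 FPKM after anti-S100a9 Ab, a rise of 3.48 ± 0.69. Each value is uncertain, because near-identical segments share reads and each mouse has its own antibody repertoire.

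**Figure D4:**
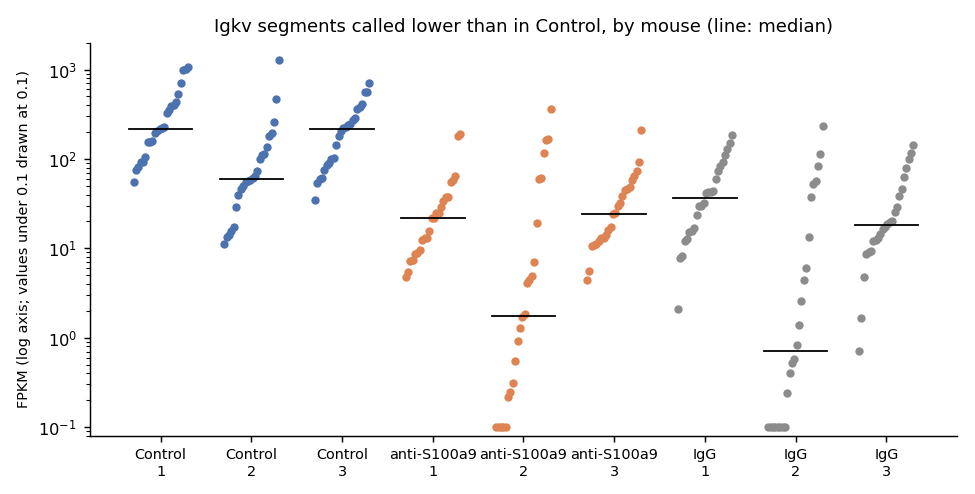
FPKM (y axis, log scale; values under 0.1 drawn at 0.1) of the 24 Igkv segments called lower than in Control, for each of the 9 mice (x axis), with lines at each mouse's median. The medians are 59.8 to 217 FPKM in the Control mice, 1.77 to 24.5 FPKM after anti-S100a9 Ab and 0.709 to 36.9 FPKM with IgG Ab.

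The 24 lower segments were not low to the same degree in every mouse. Anti-S100a9 Ab replicate 2 was under 1 FPKM in 10 of them and lowest of its group in 18, and IgG Ab replicate 2 was under 1 FPKM in 13. Control replicate 2 was lowest of its group in 19, and no Control mouse was under 1 FPKM in any. The count of lower segments was 12 without Control replicate 3 and 13 without Control replicate 1. The immunoglobulin share of all FPKM was 6.80 to 15.9% in Control and 3.82 to 14.4% after anti-S100a9 Ab and overlapped. Among 20 B cell and plasma cell genes only Tnfrsf17, the receptor BCMA of plasma cells, was called lower (1.48 ± 0.59 lower), with overlapping samples and a call that held in 1 of 6 leave-outs, that without anti-S100a9 Ab replicate 2, where 4 genes of the list were lower.

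Genes of the circadian clock differed between the groups. The clock runs as a loop in which Arntl and Clock switch on genes through E-boxes, among them the Nr1d repressors, which in turn switch off Arntl. Of 15 clock genes, 4 rose and 1 fell, against 2.52% and 1.13% of all genes, with a median of 0.53. Nr1d1 was 8.85, 4.84 and 2.58 FPKM in Control and 13.6, 19.2 and 11.6 FPKM after anti-S100a9 Ab, a rise of 1.57 ± 0.43 without overlap. Ciart, a repressor within the loop, was 0.661, 0.534 and 0.412 FPKM in Control and 1.75, 1.67 and 0.960 FPKM after anti-S100a9 Ab, a rise of 1.27 ± 0.30. Both calls held in every leave-out. Nr1d2 (1.35 ± 0.46) and Dbp, a clock output factor (1.03 ± 0.34), rose too, but without Control replicate 3 or anti-S100a9 Ab replicate 2 they were not called (Nr1d2 0.79 and 1.25, Dbp 0.80 and 0.74) and the list held 2 rises. Arntl was 6.47, 10.9 and 12.7 FPKM in Control and 4.76, 3.15 and 7.09 FPKM after anti-S100a9 Ab, and its fall of 1.01 ± 0.36, with overlapping samples, was lost in 4 of 6 leave-outs (-1.29 to -0.72), all but those without Control replicate 1 or anti-S100a9 Ab replicate 3. The core genes Per1 (0.14), Per2 (0.27), Cry1 (0.05) and Cry2 (-0.04) were not called. The hour at which each mouse was killed is not given in the sources used here, so hour and treatment cannot be told apart.

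The promoter of Ciart is shown because it holds 3 copies of the E-box CACGTG. It lies at chr3:95882229-95882378 on the minus strand of GRCm38.p6, from RefSeq, and is printed 5′ to 3′ up to the base before the start, with the E-boxes in capitals.
Ciart: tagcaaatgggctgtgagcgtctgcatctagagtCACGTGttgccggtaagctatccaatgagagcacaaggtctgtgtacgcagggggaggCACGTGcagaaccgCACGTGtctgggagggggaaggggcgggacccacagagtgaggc
The E-boxes begin 116, 58 and 44 bases before the start, and the motif reads the same on both strands. In the 250 bases before the start, 5 of the 14 clock genes with a promoter sequence held it, compared with 6.02% of all promoters. The other 4 were Bhlhe41, Cry1, Per1 and Tef, none of which was called.

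**Figure D5:**
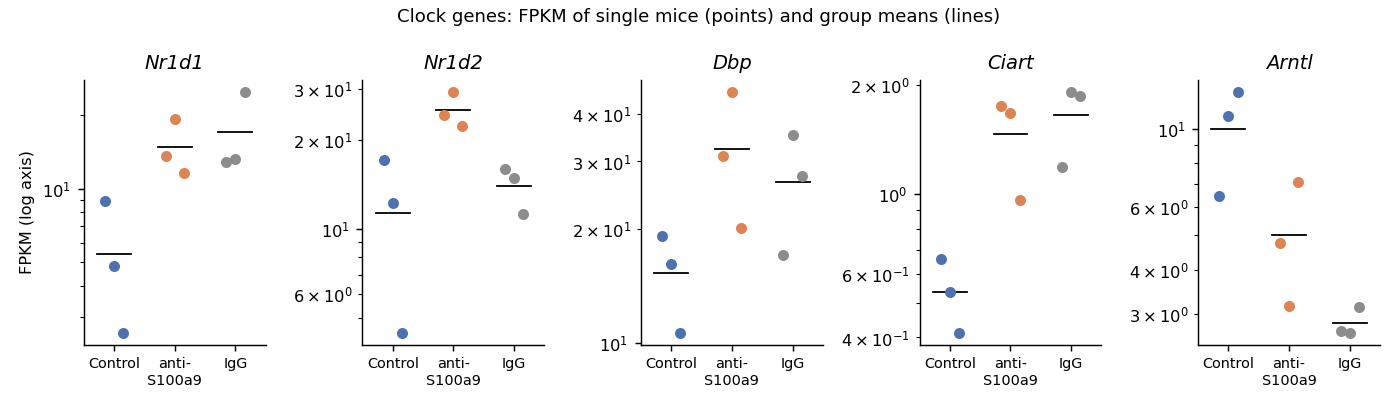
FPKM (y axes, log scale, different range in each panel) of clock genes in single mice of Control, AOM/DSS + anti-S100a9 Ab and AOM/DSS + IgG Ab, with lines at the group means (n = 3). Nr1d1 lies at 2.58 to 8.85 FPKM in Control and 11.6 to 19.2 FPKM after anti-S100a9 Ab, and Arntl runs in the opposite direction with overlapping samples.

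In the IgG Ab mice Nr1d1 was 12.8 to 24.8 FPKM, Ciart 1.19 to 1.92 FPKM and Arntl 2.65 to 3.14 FPKM. The differences between the antibodies were -0.15 for Nr1d1 and -0.18 for Ciart (9-sample limma fit, adjusted p = 0.815 and 0.689). Both AOM/DSS groups are compared with the same Control mice, so these are not independent observations of Control.

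Apoc4, Alox15 and Gm10104 rose but remained far below the IgG Ab level. Apoc4, an apolipoprotein, was at most 0.135 FPKM in Control, 0.994, 0.999 and 1.08 FPKM after anti-S100a9 Ab and 9.09 to 36.2 FPKM with IgG Ab, and it rose by 3.08 ± 0.38. Alox15, a lipid-oxidizing enzyme named after its values were seen, was 0.196 to 0.701 FPKM in Control, 1.14 to 3.60 FPKM after anti-S100a9 Ab and 8.56 to 50.6 FPKM with IgG Ab. Gm10104, a gene of the Paneth cell list, was at most 0.230 FPKM in Control and 0.618 to 7.58 FPKM after anti-S100a9 Ab, and 275 to 529 FPKM with IgG Ab, with near-identical copies that leave its value uncertain. Zbed6 did not follow this order, with 0.538 to 2.13 FPKM after anti-S100a9 Ab and under 0.1 FPKM in every Control and every IgG Ab mouse. However, its coding sequence lies inside Zc3h11a and reads of the overlap cannot be assigned. Zc3h11a itself differed by 0.07 and was not called. Gm42543, annotated as an immunoglobulin variable segment and not counted among the Igkv segments above, rose by 3.77 ± 0.88. It was 0 to 0.315 FPKM in Control, 0.867 to 7.98 FPKM after anti-S100a9 Ab and 0 to 21.7 FPKM with IgG Ab. Its value is uncertain for the same reasons as those of the Igkv segments.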

How the data were processed

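Total RNA from the colorectum of 3 mice per group was sequenced (Solexa). Each mouse has 1 deposited file, in which 21544 rows carry a gene symbol and a normalized value. Neither the files nor the paper name the unit, which was read as FPKM from the values. The submitters' processing notes name TopHat, Cufflinks, HTSeq and DESeq and the build GRCm38, with no versions, and whole reads could not be recovered from the deposited FPKM. Replicate numbers are those of the labels, which mark biological replicates. The 46 repeated rows were summed by symbol, genes that reached 0.1 FPKM in 3 or more of the 6 samples were kept, and log2(FPKM + 0.1) was fitted in limma 3.58.1 (R 4.3.3; lmFit, eBayes with an intensity trend, 6.96 degrees of freedom, Benjamini-Hochberg adjustment over 14879 genes). Differences between the antibodies come from a fit of all 9 samples (8.86 degrees of freedom). The study's DESeq test needs counts and was not repeated. Standard errors after ± are limma's, on the log2 scale.

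On simulated data with 200 genes changed in this comparison, among 14879 genes, the p and fold threshold recovered 53% at a log2 change of 1, 98.5% at 2 and 100% at 3, and 4.80 to 4.91% of unchanged genes had p under 0.05 at changes of 1 and 2. Adjusted p recovered 28% at 1 and 90.5% at 2. Noise was drawn independently for each gene at the spread limma fitted, without differences that the genes of a mouse share. These percentages therefore do not measure recovery in the real data, where no gene passed after adjustment.

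The comparison, its gene lists and the named genes were chosen with earlier results of these data known. Named genes are the 12 largest rises and falls with a mean of at least 1 FPKM in a group and no overlap, the genes the study names with Cxcl5 and Myc, and from each list the first member and up to 4 called members in each direction; not all are printed, 1 gene of the rule is not reported here, and further members of the lists are given by their values. Genes named after their values were seen are marked as such. Single values were compared with two-sided exact permutation tests. Promoters came from RefSeq (GRCm38.p6), with 250 bases before the start searched. GENCODE M21 on GRCm38 names 97.5% of the symbols. Alternatives covered pseudocount, filter, scaling, samples in the fit, replicate block, trend, repeated symbols and leaving out each mouse; the lists of Ighv, Iglv and Igkv segments were added after seeing the data. Figures were drawn with matplotlib 3.10.9.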

Additional observations from a re-analysis of the deposited data

How the results depend on the processing

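Against 375 higher and 168 lower genes, a pseudocount of 1 gave 104 and 82, a filter of 1 FPKM gave 245 higher, no fold threshold gave 1703 and 1290, and an adjusted p under 0.05 gave 0 and 0. Leaving out each mouse in turn gave 199 to 662 higher and 107 to 232 lower genes. The other settings stayed within 1.5 times of both counts. Deviations from the group mean correlated at -0.14, 0.26 and 0.12 for same-numbered mice and at -0.27 to 0.20 for differently numbered mice. So few values cannot decide whether the replicate numbers pair the mice, and the labels name no pairing. The fit with a replicate block gave 427 higher and 184 lower genes. For the 83 called genes covered by the naming rule or added to it, none of 1286 alternative values changed sign. These genes were called on the same samples, so sign changes were unlikely from the start and their absence is not evidence of stability. Of the 1286 values, 174 missed the threshold, 26 with a pseudocount of 1, 25 in the 9-sample fit and 27 without Control replicate 3, the most of any mouse. Of the 83 genes, 47 kept the call in every leave-out in which they were tested and 36 lost it at least once. The causes were not tested.

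Reversals occurred in genes that were not called. With quantile normalization C1qa was 0.25, Col1a1 0.017 and Itgax -0.0820. Leaving out each mouse in turn, log2 differences ran from -0.24 to 0.20 for C1qa, -0.66 to 0.72 for Cd3e, -0.70 to 0.12 for Cd74, -0.25 to 0.031 for Col1a1, -0.23 to 0.62 for Fos, -0.20 to 0.30 for Itgax, -0.064 to 1.41 for Saa3, -0.30 to 0.31 for Slc26a3 and -0.13 to 0.18 for Zc3h11a. With no counts, depth sets no printed limit, and 3 mice per group limit the precision.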

Other observations

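Several further lists held few calls past the fold threshold. None of the 12 class I (median 0.06) or 10 class II (median 0.21) antigen presentation genes was called, and B2m, the light chain of class I molecules, was 816 to 924 FPKM in Control and 845 to 1162 FPKM after anti-S100a9 Ab. None was called among 9 dendritic cell genes (median 0.05, and -0.13 with quantile normalization), 11 eosinophil and mast cell genes (median -0.24), 11 tuft cell genes (median 0.02, and -0.14 with quantile normalization), 14 immediate early genes (median 0.17), 5 erythroid genes, 6 skeletal muscle genes, 3 Iglv segments or 18 genes of xenobiotic and steroid metabolism (median -0.30). Dclk1, which marks tuft cells, was 0.708 to 0.988 FPKM in Control and 1.11 to 1.39 FPKM after anti-S100a9 Ab. At an unadjusted p under 0.05 alone, 5 of the 18 xenobiotic and steroid genes and 4 of the 14 immediate early genes were lower, against 8.67% of all genes. Of 17 complement genes 1 fell, the adipocyte gene Cfd, the median was 0.27, and 5 were higher at an unadjusted p under 0.05, against 11.4% of all genes.

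Single calls stood in other lists. Prox1, a transcription factor of lymphatic endothelium and of some tumor epithelium, was 0.479 to 1.01 FPKM in Control, 1.22 to 3.28 FPKM after anti-S100a9 Ab and 10.8 to 66.1 FPKM with IgG Ab. It was the 1 of 12 endothelial genes that rose (1.25 ± 0.41; 0.86 to 1.54 in leave-outs, not called without Control replicate 3 or anti-S100a9 Ab replicate 1), while the general endothelial gene Pecam1 differed by 0.35. Sprr1a, a cornified envelope gene that injured epithelium also expresses, rose by 1.34 ± 0.44 and was the 1 call in the squamous list (11 tested; 0.92 to 1.68 in leave-outs, not called without Control replicate 2 or anti-S100a9 Ab replicate 2). In the regenerative epithelium list (14 tested) the 1 call was Spp1. Nos1, the nitric oxide synthase of enteric neurons, rose by 1.06 ± 0.40 with overlapping samples, the 1 call among 14 neuron and glia genes (0.76 to 1.51 in leave-outs, called only without Control replicate 2 or anti-S100a9 Ab replicate 2). Clps, pancreatic colipase, fell by 1.27 ± 0.41, the 1 call among 3 pancreatic acinar genes tested (-1.64 to -0.92 in leave-outs, not called without Control replicate 2 or anti-S100a9 Ab replicate 2 or 3). Gm10104 was the 1 call among 5 Paneth cell genes.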
